A study of Mus musculus with 6 samples.

Results

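Purkinje cells are the output neurons of the cerebellar cortex, and 10 genes that mark them were followed in mouse medulloblastomas with and without Crebbp, a histone acetyltransferase gene. The genes are Calb1, Pvalb, Car8, Pcp4, Ppp1r17, Rora, Foxp2, Lhx1, Lhx5 and Skor2. They were taken from a list of Purkinje genes, and each was represented by its array feature annotated to that gene alone. All 10 of 10 had such a feature, 1 each, among the 22180 genes tested on the array.

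Knockout tumours came from mice of genotype Math1Cre::CrebbpFl/FlSmoM2Fl/+ (3 arrays), and wild type tumours from Math1Cre::SmoM2Fl/+ mice (3 arrays). All 6 mice thus carried SmoM2 (a constantly active Smoothened, the transducer of Sonic hedgehog) and a tamoxifen-dependent Cre driven by Math1 (Atoh1), a gene of granule neuron progenitors. Tamoxifen (1 mg) was given to all of them at postnatal day 5, and tissue was taken at day 60. The age label gives day 5, which was read as the day of induction. The arrays are Affymetrix whole-transcript arrays, and levels are log2 values after RMA normalisation. The labels do not state whether tumours of a group came from separate litters, so the p-values speak of the spread among these arrays alone, and having 3 arrays per group limits the precision.

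Purkinje cells arise from the ventricular zone of the cerebellum, a different lineage from the Atoh1-expressing progenitors of the rhombic lip that give rise to granule neurons and to this kind of tumour. During development Purkinje cells secrete Sonic hedgehog, which drives the division of granule neuron progenitors. Mature Purkinje cells handle large calcium signals and are rich in calcium buffers, calmodulin-binding proteins and modulators of the inositol trisphosphate receptor. Their early differentiation depends on LIM-homeodomain and other transcription factors, and their maturation on the nuclear receptor Rora.

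The targeted gene and sex-linked genes were examined as a check of the labels. Crebbp had a log2 level of 11.26 ± 0.07 in knockout tumours and 11.76 ± 0.05 in wild type tumours (SD, n = 3 each), with no overlap between the groups and a log2 change of -0.50 (limma adjusted p = 0.0948). Xist averaged 12.34 in knockout and 5.44 in wild type tumours, and the Y-linked Kdm5d 4.70 in knockout and 9.34 in wild type tumours, and Eif2s3y and Uty differed in the same direction as Kdm5d. The knockout arrays thus had the female and the wild type arrays the male pattern, so sex and Crebbp genotype cannot be told apart in any of the results below. None of the 10 Purkinje genes lies on a sex chromosome. Pairs of arrays correlated across genes with r between 0.984 and 0.993.

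Upstream sequence is shown for Pcp4 and Lhx1, the only ones with a motif match among the 4 members whose windows were searched. Their averages in knockout tumours lay on opposite sides of those in wild type tumours. Each line gives the 250 bases before the annotated start, from RefSeq (GRCm38.p6), 5′ to 3′ on the gene's strand. The Pcp4 window is chr16:96467356-96467605 on the plus strand and the Lhx1 window is chr11:84525535-84525784 on the minus strand. Capitals mark a motif. In the Pcp4 line it is the core site of ROR receptors such as the Rora product, AGGTCA when read on the opposite strand. In the Lhx1 line it is TGACG, the core site of CREB, the factor from which CREBBP takes its name.
Pcp4: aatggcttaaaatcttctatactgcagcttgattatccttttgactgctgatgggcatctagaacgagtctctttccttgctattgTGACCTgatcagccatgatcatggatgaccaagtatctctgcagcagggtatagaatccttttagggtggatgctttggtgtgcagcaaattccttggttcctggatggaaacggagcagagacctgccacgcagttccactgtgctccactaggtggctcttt
Lhx1: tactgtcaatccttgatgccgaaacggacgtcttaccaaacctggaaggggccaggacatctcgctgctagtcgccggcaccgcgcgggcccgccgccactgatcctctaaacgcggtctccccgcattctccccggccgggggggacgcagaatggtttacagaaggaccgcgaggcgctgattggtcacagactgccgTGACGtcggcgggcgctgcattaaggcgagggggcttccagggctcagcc
The ROR motif of Pcp4 lay from 164 to 159 bases before the start, and the CREB motif of Lhx1 from 50 to 46 bases before the start. Both strands were searched for each motif, and the motifs did not overlap each other. Of 32851 windows of the same length, 14.02% held the ROR motif and 17.77% held the CREB motif. Among the 5 windows of members searched, only that of Pcp4 held the ROR motif and only that of Lhx1 the CREB motif. For either motif, 1 of 5 windows is near its share of all windows. The windows of Pvalb and Rora, which like Pcp4 had higher averages in knockout tumours, held neither. A further motif, TAATTA, is a core bound by LIM-homeodomain proteins such as those of Lhx1 and Lhx5. It occurred in 4.840% of the windows and in 0 of the 5 windows of members that were searched. Those 5 windows belonged to 4 members, which were Lhx1, Pcp4, Pvalb and Rora. A match is a description of the letters and not evidence of binding, and a link of motif with direction was not tested.

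The members were grouped by hand, by the kind of protein they encode. The 5 calcium and signalling genes all had higher averages in knockout tumours. Of the 5 transcription factors, 4 had higher averages and 1 a lower average. Changes in the 2 sets overlapped in size, with a log2 change of 0.65 for Foxp2 and 0.58 for Pcp4. Averages of 9 of the 10 genes were above those of wild type tumours, with a median log2 change of 0.61, against 0.00 over all 22180 genes. None passed the threshold over all genes (0 of 10 at a limma adjusted p of 0.05, against 0.207% of all genes). At an unadjusted p under 0.05, 6 of 10 members were below the threshold, against 13.8% of all genes. This count was 1, 7 and 2 without knockout replicates 1, 2 and 3, and 3, 4 and 6 without wild type replicates 1, 2 and 3, against 9.8% to 16.7% of all genes in the same fits. With all arrays, 5 of the 6 were higher in knockout tumours, against 7.24% of all genes, and 1 was lower, against 6.51%. When the dimmest 50% of genes were removed, 6 of the 8 members left had an unadjusted p under 0.05 in limma. The share of all genes left was then 20.3%. In bulk tissue, a change in the number of Purkinje cells and a change in RNA per cell cannot be told apart. Neither can be told from expression of these genes by other cells of the sample, tumour cells included.

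**Figure D1:**
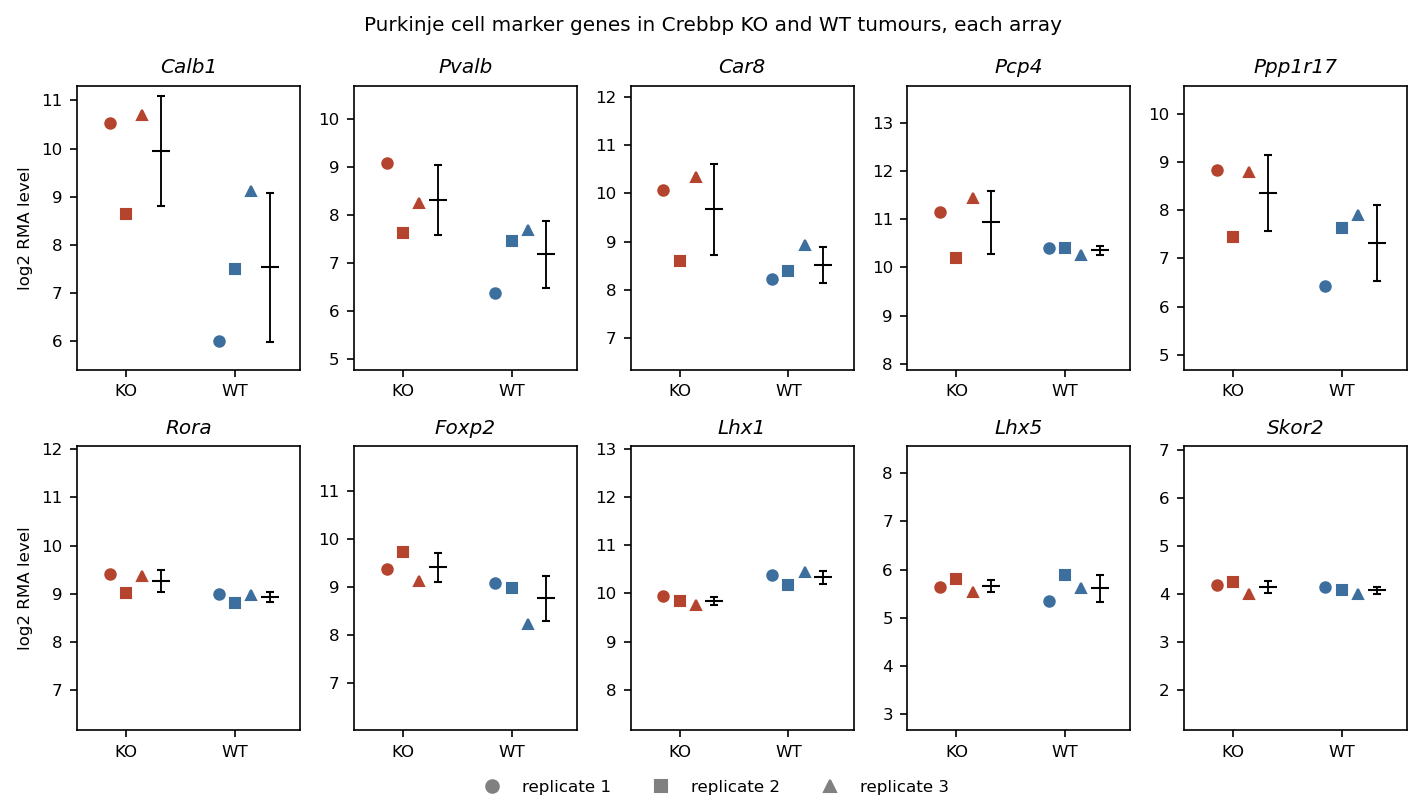
Log2 RMA level (vertical axes, all panels spanning the same range) of each of the 10 Purkinje genes in the 3 knockout (KO) and 3 wild type (WT) arrays. Points are arrays, the shape gives the replicate number, and the bar beside them is the mean ± SD. Knockout replicates 1 and 3 lie above the wild type arrays for the 5 calcium and signalling genes in the upper row, while replicate 2 lies among or below them.

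Calb1 encodes calbindin, the calcium buffer by which Purkinje cells are most often stained. Its log2 level was 10.53, 8.64 and 10.70 in knockout replicates 1 to 3, against 6.001, 7.49 and 9.11 in wild type replicates 1 to 3. Knockout replicates 1 and 3 were above all wild type arrays, but knockout replicate 2 was below wild type replicate 3, so the groups overlapped. The log2 change was 2.42 (SE 0.80, 95% interval 0.56 to 4.29), a 5.36-fold higher average level, with a limma adjusted p of 0.262. Leaving out single wild type arrays moved this log2 change to 1.66 (replicate 1 left out) or 3.21 (replicate 3 left out). Calb1 had the widest spread of the members within each group, with 2.06 between the lowest and highest knockout array and 3.11 between the lowest and highest wild type array on the log2 scale.

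Pvalb encodes parvalbumin, a calcium buffer of Purkinje cells that molecular layer interneurons also express. Its log2 level was 9.08, 7.63 and 8.24 in knockout tumours, against 6.39, 7.47 and 7.69 in wild type tumours. The order of the arrays resembled that of Calb1, with knockout replicate 2 just below wild type replicate 3 and wild type replicate 1 lowest. This gave a log2 change of 1.14 (SE 0.42, 95% interval 0.15 to 2.12, limma adjusted p = 0.304), a change that dropped to 0.74 with wild type replicate 1 left out and to 0.76 with knockout replicate 1 left out.

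Car8 encodes a carbonic anhydrase-related protein that binds the inositol trisphosphate receptor and lowers its affinity for its ligand. Car8 stood at 10.07, 8.59 and 10.35 on the log2 scale in knockout tumours, against 8.22, 8.40 and 8.93 in wild type tumours. Knockout replicate 2 again lay within the wild type range, and the other knockout arrays lay above that range by more than a log2 unit. The log2 change was 1.16 (SE 0.43, 95% interval 0.16 to 2.15, limma adjusted p = 0.302). Without knockout replicate 2 it was 1.70 and passed the threshold (limma adjusted p = 0.0352, with a range of 0.0352 to 0.558 over the 15 alternatives run).

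Pcp4 encodes a small calmodulin-binding protein. The log2 level of Pcp4 was 11.16, 10.20 and 11.45 in knockout tumours, against 10.41, 10.41 and 10.25 in wild type tumours. The wild type arrays were close together (SD 0.09) and the knockout arrays were not (SD 0.65), since knockout replicate 2 was the lowest of all 6. Between the group means the log2 change was 0.58 (SE 0.28, 95% interval -0.08 to 1.24, limma adjusted p = 0.423). Without knockout replicate 2 it was 0.94 and passed the threshold (limma adjusted p = 0.0409), and without knockout replicate 3 it was 0.32 (limma adjusted p = 0.694), the ends of the range over the 15 alternatives.

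Ppp1r17 encodes G-substrate, a target of cGMP-dependent protein kinase that inhibits protein phosphatases in Purkinje cells. Ppp1r17 had log2 levels of 8.84, 7.45 and 8.80 in knockout tumours, against 6.43, 7.63 and 7.90 in wild type tumours. Knockout replicate 2 fell between wild type replicates 1 and 2. The log2 change was 1.04 (SE 0.47, 95% interval -0.04 to 2.13, limma adjusted p = 0.380), and it was 0.60 without wild type replicate 1, the lowest array.

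In all 5 calcium and signalling genes, knockout replicates 1 and 3 exceeded the 3 wild type arrays and knockout replicate 2 did not. Their median log2 change was 1.14, yet in 0 of 5 did the groups separate fully, against 19.6% of all genes with no overlap in either direction. Pearson correlations over the 6 arrays between the 10 pairs of these genes lay between 0.66 and 0.96. The highest was that of Calb1 with Ppp1r17 and the lowest that of Pcp4 with Pvalb. Spearman's rho was 0.89 for Calb1 with Ppp1r17 and 0.43 for Pcp4 with Pvalb. These correlations describe 6 arrays that share the difference between groups.

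Rora encodes a nuclear receptor whose loss in the staggerer mouse arrests Purkinje cell maturation. Rora stood at 9.42, 9.01 and 9.36 on the log2 scale in knockout tumours, against 8.99, 8.81 and 8.97 in wild type tumours. The groups did not overlap, but knockout replicate 2 exceeded the highest wild type array only slightly. Rora had a log2 change of 0.34 (SE 0.13, 95% interval 0.04 to 0.64, limma adjusted p = 0.313). Of the transcription factors, Rora followed the calcium and signalling genes most closely. Pearson's r over the 6 arrays was 0.93 with Car8, 0.89 with Pcp4, 0.79 with Calb1, 0.75 with Pvalb and 0.74 with Ppp1r17. Spearman's rho with these genes ran from 0.54 (Pcp4 and Ppp1r17) to 0.71 (Pvalb). By rank Rora was closer to Foxp2 (rho 0.77, Pearson's r 0.31).

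Foxp2 encodes a forkhead factor of postmitotic Purkinje cells. Its log2 level was 9.38, 9.72 and 9.12 in knockout tumours, against 9.08, 8.97 and 8.23 in wild type tumours. The groups did not overlap, and the order of arrays differed from that of the calcium genes, with knockout replicate 2 highest and wild type replicate 3 lowest. The log2 change was 0.65 (SE 0.24, 95% interval 0.09 to 1.21, limma adjusted p = 0.306), and 0.38 without wild type replicate 3. Its correlation over the 6 arrays was 0.08 with Calb1 and 0.03 with Ppp1r17.

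Lhx1 encodes a LIM-homeodomain factor that acts with Lhx5 in early Purkinje cell differentiation. Lhx1 had log2 levels of 9.94, 9.84 and 9.77 in knockout tumours, against 10.38, 10.17 and 10.45 in wild type tumours. The groups did not overlap, and Lhx1 was the only member with a lower average in knockout tumours. Its log2 change was -0.49 (SE 0.11, 95% interval -0.73 to -0.24), and its limma adjusted p of 0.142 was the smallest of the members. For Lhx1, Rora and Foxp2 an exact permutation test (two-sided, n = 3 each) gave p = 0.1, and no smaller value is possible with 3 arrays in each group. The change lay between -0.56 and -0.43 when each array was left out in turn. A second feature at this locus is annotated to both Lhx1 and its antisense neighbour Lhx1os, whose RNAs it cannot tell apart. It read 9.79, 9.71 and 9.51 in knockout tumours, against 10.02, 9.98 and 10.14 in wild type tumours, also without overlap, a difference of -0.37. Lhx1 correlated negatively with each of the other 9 members, with r from -0.76 with Foxp2 to -0.29 with Skor2.

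Lhx5, the LIM-homeodomain partner of Lhx1, and Skor2, a transcriptional corepressor of the SKI family needed for Purkinje cell differentiation, were the dimmest members. Lhx5 had log2 levels of 5.63, 5.79 and 5.54 in knockout tumours, against 5.34, 5.89 and 5.61 in wild type tumours. Skor2 read 4.18, 4.24 and 3.99 in knockout tumours, against 4.13, 4.07 and 4.003 in wild type tumours. The groups overlapped for both genes. Log2 changes were 0.04 (95% interval -0.30 to 0.39, limma adjusted p = 0.931) for Lhx5 and 0.07 (95% interval -0.16 to 0.30, limma adjusted p = 0.812) for Skor2, which bounds any difference in these readings but says little where a transcript may not be detected. The table has no detection calls. As a rough guide, since background differs between features, the readings of Kdm5d, Eif2s3y and Uty in knockout arrays and of Xist in wild type arrays lay between 4.31 and 5.74. Skor2 was below that range in all arrays and Lhx5 overlapped it, so presence of these transcripts was not shown, and 8 of the 10 members remained when the dimmest 50% of genes were removed.

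Among the 5 transcription factors, 2 were higher without overlap (Rora and Foxp2, against 10.2% of all genes), 1 was lower without overlap (Lhx1, against 9.43%), and their median log2 change was 0.07.

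**Figure D2:**
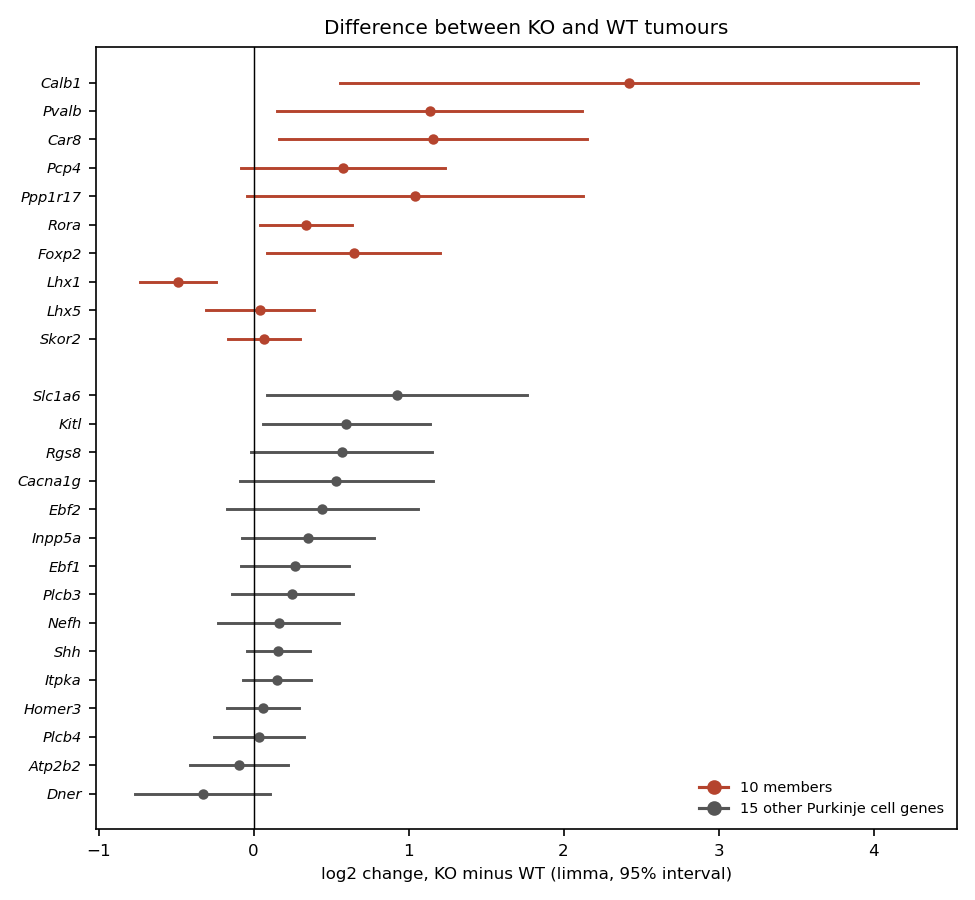
Log2 change, knockout minus wild type, with its 95% interval from limma (horizontal axis), for the 10 members (red) and 15 other Purkinje cell genes (grey). Calb1 has the largest change, 2.42, and the widest interval, 0.56 to 4.29, and Lhx1 is the only member below 0.

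**Figure D3:**
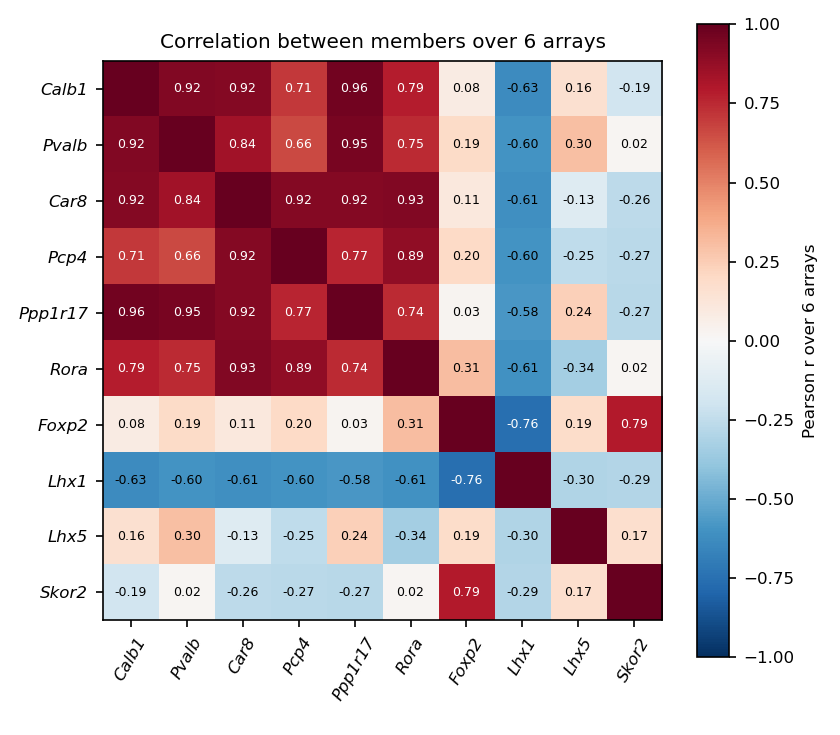
Pearson correlation over the 6 arrays between each pair of members (colour and printed value). The 5 calcium and signalling genes and Rora form a block with r of 0.66 to 0.96, Foxp2 stands outside it, and Lhx1 is negative against every other member.

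Purkinje genes outside the 10 were examined in a second list of 24, of which 15 had a feature of their own and the other 9 are not analysed here. Log2 changes were above 0 for 13 of the 15 and had a median of 0.25, and 0 passed the threshold in either direction, while 2 of the 15 had an unadjusted p under 0.05, both higher in knockout tumours, a share near the 13.8% of all genes. Slc1a6, the glutamate transporter of Purkinje cell spines, had log2 levels of 9.12, 8.001 and 9.29 in knockout tumours, against 7.45, 7.80 and 8.40 in wild type tumours. It showed the order of arrays seen for Car8, and its log2 change was 0.92 (SE 0.36, limma adjusted p = 0.324). Kitl, the ligand by which Purkinje cells signal to Kit on interneurons, read 8.72, 8.72 and 8.38 in knockout tumours, against 7.61, 7.87 and 8.55 in wild type tumours, with a log2 change of 0.60 (SE 0.23, limma adjusted p = 0.3199). Shh, singled out after its values were seen because it encodes the ligand that Purkinje cells supply to granule progenitors, read 5.73, 5.83 and 5.68 in knockout tumours, against 5.58, 5.63 and 5.55 in wild type tumours. These Shh readings differed by 0.16 (SE 0.09) on the log2 scale and lay around the top of the range of absent sex-linked genes given above.

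Markers of mature granule neurons, the most numerous neurons of the normal cerebellum, were also highest in knockout replicates 1 and 3. The median deviation of the 14 measured granule neuron markers from their own means was 0.46, -0.23 and 0.43 in knockout replicates 1 to 3, against -0.22, -0.21 and -0.22 in wild type replicates 1 to 3. The same quantity for the 5 calcium and signalling genes was 1.00, -0.39 and 0.96 in knockout tumours, against -1.36, -0.28 and -0.06 in wild type tumours. Knockout replicates 1 and 3 were thus high in both lists, and knockout replicate 2 lay just below the wild type arrays in the granule list. Log2 changes were above 0 for 12 of the 14 granule genes (median 0.48), and 0 passed the threshold in limma, with 6 at an unadjusted p under 0.05, all higher in knockout tumours, against 7.24% of all genes. The mean log2 level of this list ran from 8.89 to 9.77 in knockout arrays and from 8.64 to 8.83 in wild type arrays. Cbln3, a secreted cerebellin of mature granule neurons, read 10.48, 8.17 and 10.38 in knockout tumours, against 6.80, 6.99 and 8.36 in wild type tumours, and the potassium channel gene Kcnd2 had a log2 change of 0.62 (SE 0.18, limma adjusted p = 0.223). The median deviation of the 10 members correlated over the 6 arrays with that of the granule markers at r = 0.97 (Spearman's rho 0.71). Over the other 10 lists r ran between -0.84 for granule neuron progenitors and 0.95 for the other Purkinje cell genes, with 0.92 for GABAergic interneurons and 0.84 for endothelium and pericytes, so a high value was not particular to granule markers. The part that the amount of mature cerebellar tissue in each sample has in the Purkinje values was not tested.

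Markers of GABAergic interneurons, which share Pvalb with Purkinje cells, had median deviations of 0.19, -0.07 and 0.05 in knockout tumours, against -0.19, -0.07 and -0.06 in wild type tumours. Log2 changes were above 0 for 10 of the 15 measured (median 0.14), 0 passed the threshold and 6 had an unadjusted p under 0.05, against 13.8% of all genes. The mean log2 level per array was 6.96 to 7.21 in knockout tumours and 6.87 to 6.99 in wild type tumours. The GABA-synthesising enzyme gene Gad1, which Purkinje cells also use, had a log2 change of 0.47 (SE 0.11, limma adjusted p = 0.152), and Nxph1 one of -0.61 (SE 0.18, limma adjusted p = 0.215). The part of interneurons in the Pvalb values was not tested.

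Most progenitor markers had lower averages in knockout tumours. Log2 changes were below 0 for 11 of 16 genes of granule neuron progenitors (median -0.30), and 0 passed the threshold. At an unadjusted p under 0.05, 9 were lower and 3 higher in knockout tumours, against 6.51% and 7.24% of all genes. The mean log2 level per array was 10.76 to 10.89 in knockout tumours and 10.70 to 10.94 in wild type tumours. The cyclin gene Ccnd2 had a log2 change of -0.69 (limma adjusted p = 0.0948) and the hedgehog antagonist gene Hhip one of 1.46 (limma adjusted p = 0.0635). Markers of astrocytes and Bergmann glia, the glia that surround Purkinje cells, differed from the Purkinje order in wild type replicate 3. Their median deviation was 0.23, 0.14 and 0.17 in knockout tumours, against -0.31, -0.43 and 0.35 in wild type tumours, and log2 changes were above 0 for 12 of 15 (median 0.37, 0 past the threshold and 4 at an unadjusted p under 0.05, against 13.8% of all genes). Sox2, a transcription factor gene of glia and neural stem cells, averaged 9.25 ± 0.18 in knockout and 8.80 ± 0.05 in wild type tumours (SD, n = 3 each), a difference of 0.45 (SE 0.11, limma adjusted p = 0.180). Aldoc, an aldolase gene of astrocytes that subsets of Purkinje cells also express, averaged 11.70 ± 0.48 in knockout and 10.23 ± 0.84 in wild type tumours (SD, n = 3 each), a difference of 1.47 (SE 0.41, limma adjusted p = 0.201).

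**Figure D4:**
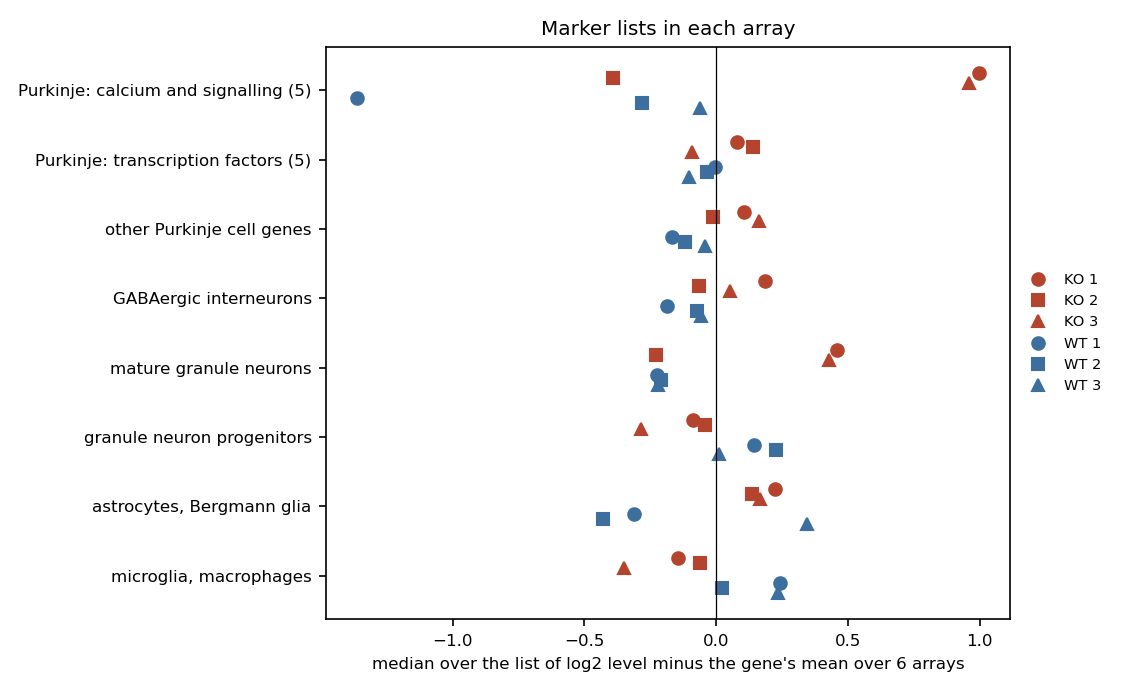
Median over each marker list of a gene's log2 level minus its mean over the 6 arrays (horizontal axis), for each knockout (KO, red) and wild type (WT, blue) array, with the shape giving the replicate. In the calcium and signalling list and the mature granule neuron list, knockout replicates 1 and 3 stand to the right of the other 4 arrays.

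Likeness to the median deviation of the 10 members was searched among 1750 genes. The most alike were Thy1, Rit2, Kit, Kcnt1, Grin2c, Phyhip, Cacna2d2 and Scn2b, with Pearson's r of 0.993 to 0.995 over the 6 arrays. They were picked as the highest, so their high r is in part a product of the search. Thy1, the most alike, read 8.72, 7.73 and 8.54 in knockout tumours, against 7.29, 7.45 and 7.71 in wild type tumours. Knockout replicate 2 was close to the highest wild type array for this gene too. For single members, the most similar gene was Shisa6 for Calb1, Kirrel3 for Car8, Kcnc1 for Pcp4, Unc80 for Ppp1r17, Penk for Pvalb, Aifm3 for Rora and Vash2 for Foxp2, with r from 0.971 to 0.998. Lhx1 was most like Adgrb2 (r = 0.984), an adhesion receptor gene that fell in knockout tumours by 1.10 on the log2 scale (limma adjusted p = 0.0294). Lhx5 was most like 9130008F23Rik (r = 0.884) and Skor2 most like Pcdhb6 (r = 0.975), and both rest on dim readings.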

How the data were processed

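Total RNA of 6 tumours was hybridised to Affymetrix arrays, and the authors deposited log2 values made by RMA, per the submitters' processing notes, which also name the package oligo. No version or genome build is stated there. RMA gives the probe intensities of all arrays the same distribution before they are combined into features. It would thus hide a change common to most genes, and it shrinks differences of dim features. Of 41345 features, 23521 had 1 gene symbol in the platform annotation, 1814 had several and 16010 were unnamed here. Where a gene had several (1082 genes), its brightest feature on average was kept. This gave 22180 genes, with no filter on level. Chromosomes and upstream sequences came from RefSeq tables of GRCm38.p6.

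Samples were grouped by their titles. Knockout was compared with wild type by limma (version 3.58.1, R version 4.3.3) using lmFit and eBayes. Tests were two-sided, and a gene was called at a Benjamini-Hochberg adjusted p under 0.05 over all genes. The fit was tested on simulated data. The 12 gene lists, that of the members included, were chosen with earlier results of these data known, so no list was tested. From each list other than that of the members, genes that were called are named, and where none was, the 2 of lowest p. Likeness was searched among genes with a mean log2 level of at least 6 and an SD of at least 0.3. The alternatives concerned dim genes, array scaling, the variance model, array weights, several features per gene, a replicate block and single arrays. A fit without sex-chromosome genes was chosen after seeing the data.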

Additional observations from a re-analysis of the deposited data

How the results depend on the processing

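The direction of 9 of the 10 members was the same in each of the alternatives run. Lhx5 was the exception, whose log2 change was -0.03 when knockout replicate 2 was left out and ranged from -0.10 (no wild type replicate 1) to 0.18 over the arrays left out. The median log2 change of the members ranged from 0.45 to 0.72 when each array was left out, and was 0.84 without the dimmest 50% of genes, which removed Lhx5 and Skor2. The number of members past the threshold ranged from 0 to 2 over the arrays left out, the 2 being Car8 and Pcp4 without knockout replicate 2, and was 0 in each other alternative. The median of the other Purkinje genes ranged from 0.16 to 0.29 over the arrays left out and was 0.17 with the mean of all features of a gene.

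Over all genes, 46 passed the threshold. The number was 15, 128 and 4 without knockout replicates 1, 2 and 3, and 12, 18 and 99 without wild type replicates 1, 2 and 3. It was 107 with an intensity trend and 12 with a replicate block. Crebbp, with a log2 change of -0.50, passed without the dimmest 50% of genes (limma adjusted p = 0.0486) and with an intensity trend (-0.50, limma adjusted p = 0.0263), and its change ranged from -0.54 to -0.47 over the arrays left out. The causes of these differences were not tested. A pairing of tumours by replicate number was not seen, though deviations within groups of 3 arrays cannot exclude one. Deviations of same-numbered arrays from their group means correlated across genes at -0.03, 0.05 and 0.10, and not every array correlated best with its own number. With 3 arrays per group and no detection calls, differences in Lhx5 and Skor2 could not be judged at these signal levels.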

Other observations

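Early factors of the GABAergic lineage of the cerebellum, from which Purkinje cells derive, differed in direction among themselves. Of 8 measured, 3 had positive and 5 negative log2 changes, with a median of -0.13, limma called 0 and gave 4 an unadjusted p under 0.05, against 13.8% of all genes. Prdm13, a transcription factor gene of inhibitory neuron specification, averaged 7.82 ± 0.38 in knockout tumours and 6.81 ± 0.33 in wild type tumours (SD, n = 3 each), without overlap, with a log2 change of 1.01 (SE 0.23, limma adjusted p = 0.148). The homeobox gene Gsx1 had a log2 change of -0.39 (SE 0.13, limma adjusted p = 0.249), also without overlap. Ptf1a, which specifies the lineage and was chosen after its values were seen, had a log2 change of -0.04 (SE 0.11).

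Markers of other cells gave these values, with 0 genes past the threshold in limma in each list and 13.8% of all genes at an unadjusted p under 0.05. Microglia and macrophage markers had a median log2 change of -0.33 (14 measured, 8 at an unadjusted p under 0.05), with Fcgr3 at -0.79 and Ctss at -0.57. Markers of cerebellar nuclei and unipolar brush cells had a median of -0.18 (10 measured, 2 at an unadjusted p under 0.05), with Eomes at 0.77 and Olig3 at -2.81. Oligodendrocyte lineage markers had a median of -0.17 (11 measured, 5 at an unadjusted p under 0.05), with Pdgfra at -0.45 and Sox10 at -0.69. For endothelium and pericytes the median was 0.08 (11 measured, 5 at an unadjusted p under 0.05), with Col4a1 at 0.63 and Tek at 0.50. Choroid plexus markers had a median of -0.35 (6 measured, 1 at an unadjusted p under 0.05), with Aqp1 at -0.31. Ttr, the transthyretin gene of that epithelium, averaged 8.37 ± 0.40 in knockout tumours and 10.81 ± 2.71 in wild type tumours (SD, n = 3 each), and the median deviation of the choroid plexus list was 1.01 in wild type replicate 1, where that of the calcium and signalling Purkinje genes was -1.36.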
